A study of Mus musculus with 36 samples.

Results

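Macrophage identity genes are described here in the mouse macrophage line RAW264.7, which came from a virus-induced tumour, across 2 count tables of RNA-seq libraries. The 9 genes Csf1r, Spi1, Cebpa, Cebpb, Maf, Adgre1, Itgam, Cd68 and Mertk were taken by name, and all 9 were found among the 49568 gene names that each table lists. The study asked how 2 short peptides from human HLA-DRβ chains act on macrophages: 65–79*SE, which carries the shared epitope of alleles linked to rheumatoid arthritis, and 65–79*PE, which carries a sequence of alleles linked to protection. In the IFNγ table, cells were labelled PBS, 65–79*SE with IFNγ or 65–79*PE with IFNγ. In the Il-4 table they were labelled PBS, 65–79*SE with Il-4 or 65–79*PE with Il-4, with 6 libraries in each of the 6 groups. Peptides were at 100 µg/ml and cytokines at 5 ng/ml, the medium was refreshed at 48 h and RNA was taken at 72 h. All libraries came from this 1 line, so they are cultures of 1 genotype, and the labels do not settle whether the PBS cells received a cytokine. Against PBS, peptide and cytokine therefore cannot be told apart. Only 65–79*SE against 65–79*PE compares peptides under the same cytokine label.

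A macrophage takes its identity from a small circuit of transcription factors. PU.1, the product of Spi1, opens myeloid enhancers together with C/EBPα and C/EBPβ, and c-Maf belongs to the mature tissue macrophage and restrains its division. The circuit keeps up CSF1R, the receptor through which M-CSF and interleukin 34 sustain the lineage, and surface and lysosomal proteins by which macrophages are recognised: F4/80 (Adgre1), the αM chain of the complement receptor CR3 or CD11b (Itgam), macrosialin (Cd68) and the MERTK receptor for dying cells.

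Within each group, the count columns of replicates 1–3 and 4–6 were named by different schemes, the study states that its replicates came from 2 independent experiments, and the sets are shown apart throughout. Total counts ran from 20666573 to 63155889 per library in the IFNγ table and from 17049921 to 30639021 in the Il-4 table. The sets also differed in composition, since histone genes summed to 54.3 to 164 CPM (counts relative to library size, scaled by TMM) in PBS replicates 1–3 and to 2596 to 14523 CPM in PBS replicates 4–6. The libraries labelled 65–79*SE with IFNγ, replicates 4–6, went against their label. The 5 genes induced by IFNγ that were checked (Ciita, H2-Aa, H2-Ab1, Irf1 and Gbp2) summed to 14.0 to 15.8 CPM in them, overlapping the range of PBS replicates 4–6 (14.7 to 16.0 CPM), against 1111 to 1229 CPM in 65–79*SE replicates 1–3. Results from those 3 libraries are given as labelled. The same genes summed to 15.1 to 16.6 CPM in PBS replicates 1–3 of the IFNγ table. In 65–79*PE replicates 1–3 they summed to 1515 to 1659 CPM, above the range of 65–79*SE replicates 1–3. In the Il-4 table, genes induced by Il-4 (Arg1, Chil3, Retnla, Mgl2, Ccl24 and Socs2) summed to 0.249 to 0.558 CPM in PBS libraries. They summed to 31.8 to 89.7 CPM in the libraries with peptide and Il-4. Whether the PBS cells received a cytokine was not tested. Markers of other cell types were at or near 0: marker lists for B cells, neutrophils, mast cells, epithelial cells, erythroid cells and fibroblasts each summed to at most 1.72 CPM in any library and that for dendritic cells to at most 2.58 CPM. The T cell list summed to 6.37 to 18.6 CPM, with Cd3e, Cd3d and Cd8a at no more than 3 counts per library. It was higher in the IFNγ replicates 1–3 with peptide (15.2 to 18.6 CPM) than in PBS (7.71 to 10.9 CPM), and its part in the results was not tested. Of the 9 genes, all but Maf and Mertk lay well above the detection floor in every library.

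Per transcript length, Cd68 was the most abundant of the 9 genes in every PBS set. In PBS replicates 1–3 of the IFNγ table the levels were 924 ± 37.9 RPKM for Cd68 (CPM per kilobase of exon, as mean ± SD with n = 3), 124 ± 3.33 for Csf1r, 109 ± 8.50 for Spi1, 36.4 ± 1.50 for Itgam, 28.5 ± 2.35 for Cebpb and 19.9 ± 2.24 for Adgre1. Cebpa followed at 5.59 ± 0.162 RPKM, Maf at 0.0463 ± 0.0173 RPKM and Mertk at 0.00472 ± 0.00409 RPKM. Csf1r and Spi1 stood in this order with ranges that did not overlap. In PBS replicates 4–6 the ranges of Csf1r and Spi1 overlapped in the IFNγ table, as did those of Itgam and Cebpb. Maf and Mertk, at 3 to 100 and 0 to 12 counts per library over all 36 libraries, were thus listed far below the other 7 genes, and a zero count allowed up to 3 counts, or 0.0541 to 0.172 CPM, as counting error only.

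**Figure D1:**
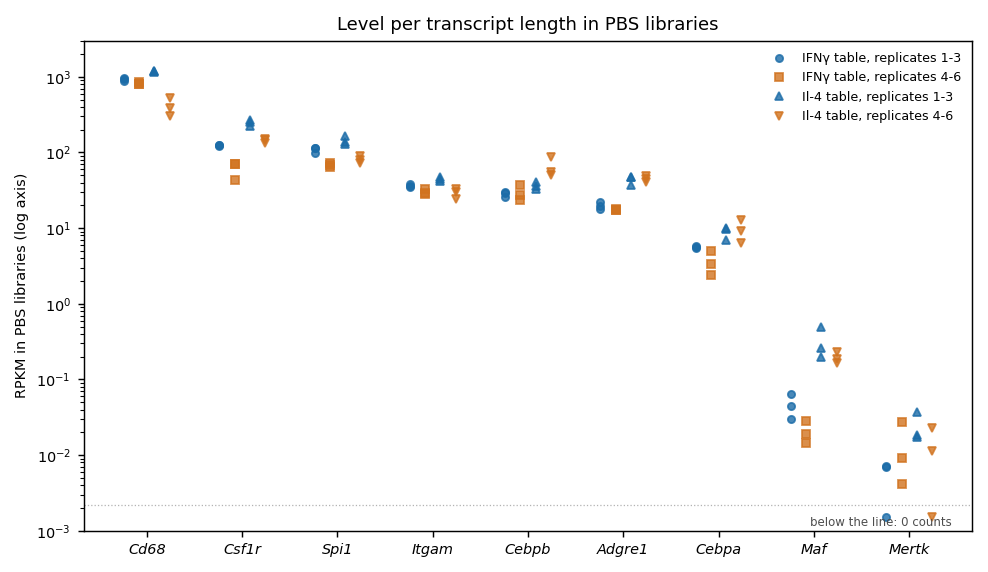
Level of the 9 genes per kilobase of exon in PBS libraries, on a log axis, with 1 point per library (3 libraries per table and label set). Cd68 lies highest in every set, Maf and Mertk lie lowest, and the Il-4 replicates 4–6 of Cd68 stand below the other 3 sets.

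Promoter windows of 5 members (Cebpa, Cebpb, Itgam, Cd68 and Mertk) were used, and those of Csf1r, Spi1, Maf and Adgre1 were not searched. The windows ran from 250 bases before to 50 after the transcription start (RefSeq, GRCm38.p6). They were searched on both strands for the PU.1 box GAGGAA, the C/EBP motif TTGCNNAA, the c-Maf motif TGCTGA and the STAT6 motif. Only the windows of Itgam and Cd68 held any of these, and their 250 upstream bases are shown for that reason, at chr7:128062390-128062639 on the plus strand for Itgam and at chr11:69666171-69666420 on the minus strand for Cd68. Capitals mark the PU.1 box (TTCCTC where it reads on the opposite strand) and, in Cd68, the C/EBP motif.
Itgam: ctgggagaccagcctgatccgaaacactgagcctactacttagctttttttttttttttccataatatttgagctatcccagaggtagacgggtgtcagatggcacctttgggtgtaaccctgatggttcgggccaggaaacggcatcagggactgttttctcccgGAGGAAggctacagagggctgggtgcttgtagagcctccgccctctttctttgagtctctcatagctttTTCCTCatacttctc
Cd68: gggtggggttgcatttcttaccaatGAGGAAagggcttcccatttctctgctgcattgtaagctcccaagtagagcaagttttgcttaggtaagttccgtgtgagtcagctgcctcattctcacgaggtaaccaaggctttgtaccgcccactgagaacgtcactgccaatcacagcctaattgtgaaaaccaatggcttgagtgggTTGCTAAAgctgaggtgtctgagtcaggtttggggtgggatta
Itgam held 3 PU.1 boxes over the whole window, nearest at 10 bases before the start, and Cd68 held 2, at 220 bases before and 29 bases after the start, with a C/EBP motif 36 bases before it. Of 32817 promoter windows of 300 bases, 28.3% held the PU.1 box, 10.8% the C/EBP motif, 19.5% the c-Maf motif and 6.94% the STAT6 motif, and a match is a description of letters only.

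Few of the members were called against PBS in any set. A gene was called where its adjusted p (edgeR quasi-likelihood test, Benjamini-Hochberg over all genes tested) was under 0.05 and its fold change over 1.5. Mertk was under the low count filter, so 8 members were tested, among 16845 genes in the IFNγ table and 14183 in the Il-4 table. For 65–79*SE with IFNγ against PBS, replicates 1–3, 1 member was called (Adgre1), where 21.0% of all genes tested were. For 65–79*PE with IFNγ, replicates 1–3, 0 members were called against a background of 18.4%, and 0 were called by DESeq2. There 4 of the 8 members had an unadjusted p under 0.05, where 47.6% of all genes tested did. In replicates 4–6, 1 member was called in the libraries labelled 65–79*SE with IFNγ (Maf, background 1.82%) and 3 with 65–79*PE and IFNγ (Adgre1, Maf and Cebpa, background 11.1%). In the Il-4 table, 1 member was called in each contrast. It was Maf for 65–79*SE in replicates 1–3 (background 6.13%) and Adgre1 for 65–79*SE in replicates 4–6 (2.19%), for 65–79*PE in replicates 1–3 (3.47%) and for 65–79*PE in replicates 4–6 (3.53%). With the replicate number as a block, these counts were 1, 3, 2 and 2, in the same order, with Maf added in the last 3 and Csf1r for 65–79*SE in replicates 4–6. The backgrounds above are from the fit without the block. The share of all genes called with the block is not given here, so the added members are not read as particular to this list. The peptide groups of a set share their PBS libraries, so the counts for both peptides are not independent. The median log2 fold change of the 8 members was 0.23 for 65–79*SE and -0.12 for 65–79*PE with IFNγ in replicates 1–3, beside -0.04 over all genes tested in both contrasts. In bulk RNA, fewer cells of a type and less RNA per cell cannot be told apart.

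**Figure D2:**
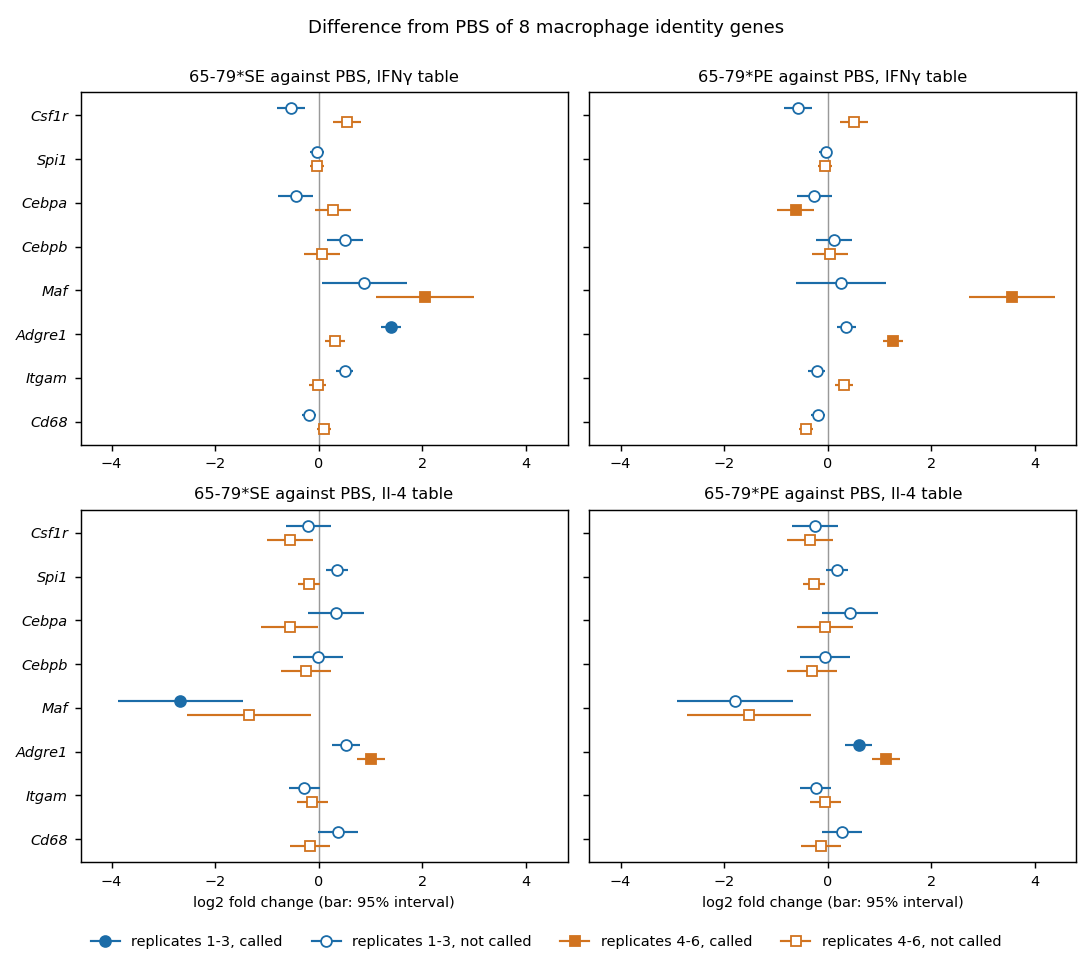
Log2 fold change against PBS of the 8 members tested, with 95% intervals, for each peptide and table (filled where called, open where not, circles for replicates 1–3, squares for replicates 4–6). Adgre1 lies to the right of 0 in all 4 panels, Maf lies right with IFNγ and left with Il-4, and Csf1r changes side between the sets with IFNγ.

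Adgre1 encodes F4/80, the adhesion G protein-coupled receptor by which mouse macrophages are most often recognised, and it was called in more contrasts with PBS than any other member. In the IFNγ table, replicates 1–3, PBS libraries had 72.0, 57.5 and 64.0 CPM, 65–79*SE libraries 183, 152 and 171 CPM and 65–79*PE libraries 83.2, 91.4 and 73.6 CPM. The 65–79*SE values were above every other library of that set. Adgre1 rose 2.62-fold with 65–79*SE (log2 fold change 1.39 ± 0.09 SE, adjusted p = 5.73e-11), while 65–79*PE was 1.28-fold higher than PBS, past the adjusted p but under the fold limit (log2 0.36 ± 0.09 SE, adjusted p = 0.0031).

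The order of the peptides was turned in replicates 4–6. PBS libraries had 56.6, 58.3 and 55.6 CPM, the libraries labelled 65–79*SE 72.5, 68.7 and 70.1 CPM and those with 65–79*PE 149.7, 132 and 125 CPM. The 65–79*PE libraries lay above all others, and Adgre1 rose 2.38-fold (log2 1.25 ± 0.09 SE, adjusted p = 5.46e-10). The libraries labelled 65–79*SE, which lacked the IFNγ response, did not overlap with PBS either, but the difference of 0.31 ± 0.09 (SE, adjusted p = 0.0568) was not called. For 65–79*SE, the change against PBS differed between the sets for 3 members (Adgre1, Csf1r and Cebpa, where 22.6% of all genes did), and for 65–79*PE for 3 (Adgre1, Csf1r and Maf, where 5.49% did). For Adgre1 the sets differed by -1.08 (adjusted p = 1.03e-06) for 65–79*SE and by 0.90 (adjusted p = 0.00019) for 65–79*PE on the log2 scale. With the 3 libraries labelled 65–79*SE, replicates 4–6, left out of the fit, the calls of Adgre1 for 65–79*PE and for 65–79*SE in replicates 1–3 stayed.

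With Il-4, Adgre1 was higher than in PBS with both peptides and in both sets. In replicates 1–3, PBS libraries had 119.6, 156 and 155 CPM, 65–79*SE libraries 208, 177 and 234 CPM and 65–79*PE libraries 223, 206 and 221 CPM. Replicates 4–6 had 158, 143 and 130.1, then 299, 291 and 272, then 359.6, 304 and 278 CPM. No peptide library overlapped with the PBS libraries of its set. The log2 fold change was 0.53 ± 0.13 (SE, adjusted p = 0.0122) for 65–79*SE and 0.59 ± 0.13 (SE, adjusted p = 0.0107) for 65–79*PE in replicates 1–3, then 1.00 ± 0.13 (SE, adjusted p = 0.000217) and 1.13 ± 0.13 (SE, adjusted p = 4.89e-05) in replicates 4–6. The 65–79*SE value in replicates 1–3 was 1.44-fold, under the fold limit, and the call of 65–79*PE there was lost without replicate 1, 2 or 3 (log2 0.46, 0.69 and 0.64, adjusted p = 0.0819, 0.055 and 0.0955).

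**Figure D3:**
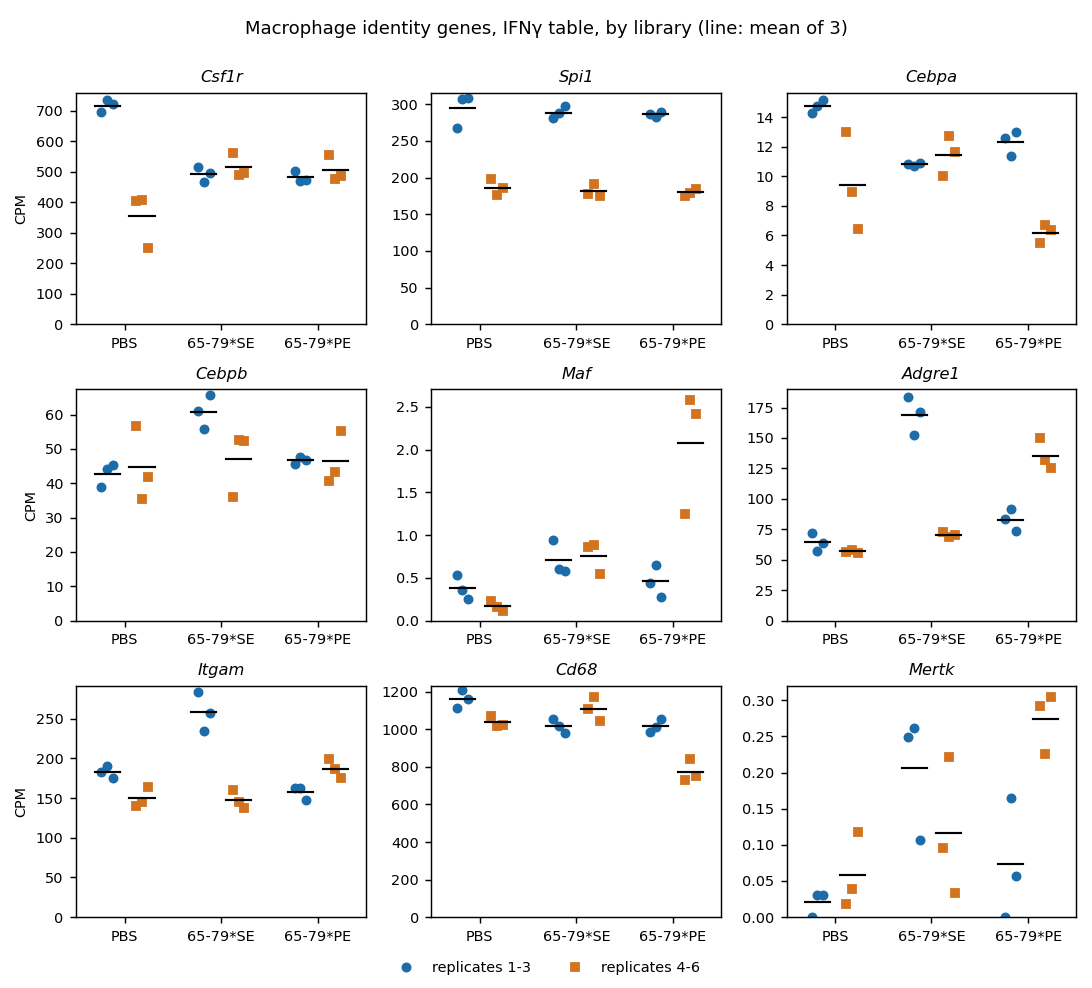
CPM of the 9 genes in each library of the IFNγ table (circles for replicates 1–3, squares for replicates 4–6, lines for means of 3 libraries). Adgre1 and Itgam are highest with 65–79*SE in replicates 1–3 and with 65–79*PE in replicates 4–6, Csf1r of PBS is above the peptide groups in replicates 1–3 and below them in replicates 4–6, and Spi1 differs by set but not by group.

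Csf1r, the M-CSF receptor, lay below PBS in replicates 1–3 and above it in replicates 4–6 of the IFNγ table with both peptides. In replicates 1–3, PBS libraries had 696, 734 and 721 CPM, 65–79*SE libraries 514, 465 and 495 CPM and 65–79*PE libraries 503, 469.8 and 471 CPM. Among replicates 4–6, PBS libraries had 404, 409 and 251 CPM, the libraries labelled 65–79*SE 561, 491 and 497 CPM and those with 65–79*PE 555, 474 and 484 CPM. Neither peptide group overlapped with PBS in either set, with PBS the highest in replicates 1–3 and the lowest in replicates 4–6. The peptide libraries of both sets lay between 465 and 561 CPM, whereas the PBS libraries of the sets did not overlap.

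The log2 fold change of Csf1r was -0.54 ± 0.13 (SE, adjusted p = 0.00204) for 65–79*SE and -0.57 ± 0.13 (SE, adjusted p = 0.0015) for 65–79*PE in replicates 1–3. It was 0.54 ± 0.13 (SE, adjusted p = 0.0241) for the libraries labelled 65–79*SE and 0.51 ± 0.13 (SE, adjusted p = 0.00619) for 65–79*PE in replicates 4–6. All 4 were past the adjusted p and under the fold limit. The difference between the sets was called for both peptides, at 1.09 (adjusted p = 0.000126) and 1.08 (adjusted p = 0.00129), and it rests on PBS libraries that both peptides share. Replicate 6 of PBS was the lowest library, and without replicate 6 the log2 fold changes in replicates 4–6 were 0.34 (adjusted p = 0.0763) and 0.32 (adjusted p = 0.00961).

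In the Il-4 table, Csf1r was lower with both peptides on average, but no difference was called without a replicate block. PBS libraries had 1279, 1555 and 1462 CPM in replicates 1–3 and 874, 833 and 779 CPM in replicates 4–6. With 65–79*SE the values were 1033, 1295 and 1400.1 and 318, 667 and 703 CPM, and with 65–79*PE they were 1078, 1197 and 1341 and 564, 659.7 and 739 CPM. Peptide libraries overlapped with PBS in replicates 1–3 and lay below it in replicates 4–6. The log2 difference was -0.20 ± 0.21 (SE, adjusted p = 0.563) for 65–79*SE and -0.25 ± 0.21 (SE, adjusted p = 0.518) for 65–79*PE in replicates 1–3, then -0.56 ± 0.21 (SE, adjusted p = 0.144) and -0.34 ± 0.21 (SE, adjusted p = 0.393) in replicates 4–6. The 65–79*SE value of replicates 4–6 was -0.21 without replicate 4, whose 65–79*SE library was the lowest, and -0.78 without replicate 6. That of 65–79*PE was -0.46 to -0.17 over the replicates left out. With the replicate number as a block, Csf1r was called lower with 65–79*SE in replicates 4–6 (log2 -0.63, adjusted p = 0.0381), although same-numbered libraries of that contrast did not all deviate together.

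**Figure D4:**
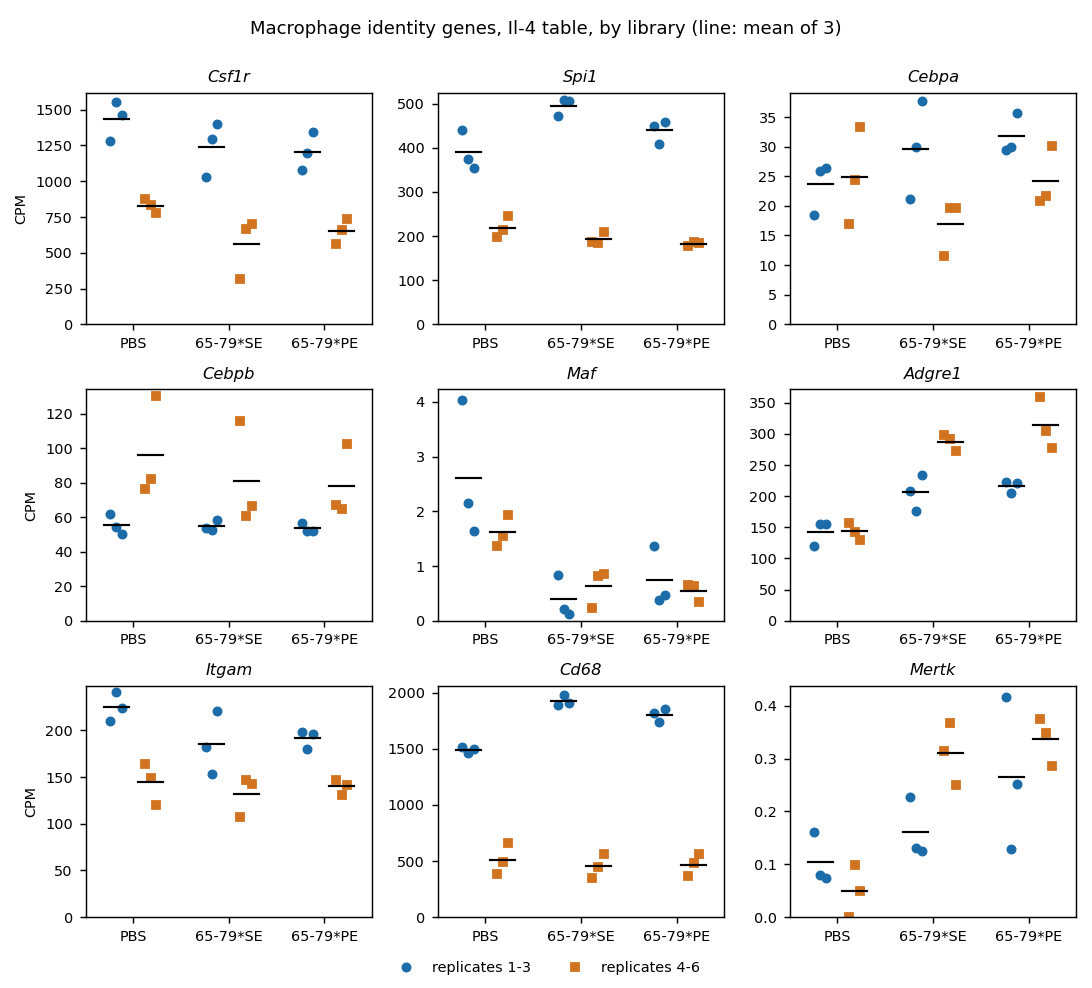
CPM of the 9 genes in each library of the Il-4 table (circles for replicates 1–3, squares for replicates 4–6, lines for means of 3 libraries). Adgre1 is higher with both peptides in each set, Maf is lower with both, and Cd68, Csf1r and Spi1 are lower in replicates 4–6 than in replicates 1–3 in every group.

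Spi1, which encodes PU.1, did not differ from PBS past the adjusted p with either peptide in the IFNγ table. In the IFNγ table, replicates 1–3, PBS libraries had 268, 307 and 308 CPM, 65–79*SE libraries 281, 287 and 297 CPM and 65–79*PE libraries 287, 282 and 289 CPM. Replicates 4–6 had 198, 176 and 185, then 177, 191 and 175, then 175, 179 and 185 CPM. The groups overlapped within each set. The 95% intervals of the log2 difference from PBS were -0.17 to 0.10 and -0.18 to 0.09 in replicates 1–3 and -0.18 to 0.09 and -0.19 to 0.08 in replicates 4–6.

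With Il-4, PBS libraries had 440.4, 374 and 354 CPM of Spi1 in replicates 1–3 and 198, 214 and 244 CPM in replicates 4–6. Values were 473, 507 and 505 and 186, 183 and 208 CPM with 65–79*SE, and 450.1, 409 and 459 and 177, 187 and 184 CPM with 65–79*PE. The 65–79*SE libraries lay above PBS in replicates 1–3, at a log2 difference of 0.35 ± 0.10 (SE, adjusted p = 0.0323), under the fold limit, and the other 3 differences (0.17, -0.19 and -0.26) were not past the adjusted p, although the 65–79*PE libraries lay below PBS in replicates 4–6.

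Cebpa, which encodes the factor that opens the myeloid programme in progenitors, was lower with 65–79*PE and IFNγ in replicates 4–6. In the IFNγ table PBS libraries had 14.3, 14.8 and 15.1 CPM in replicates 1–3 and 12.97, 8.95 and 6.41 CPM in replicates 4–6. Values were 10.9, 10.7 and 10.9 and 10.01, 12.8 and 11.6 CPM in the libraries labelled 65–79*SE, and 12.6, 11.4 and 13 and 5.50, 6.68 and 6.35 CPM with 65–79*PE. Both peptides lay below PBS without overlap in replicates 1–3, whereas in replicates 4–6 the widely spread PBS libraries overlapped with both. Cebpa fell with 65–79*PE in replicates 4–6 (log2 -0.62 ± 0.17 SE, adjusted p = 0.0102), but the value was -0.22 (adjusted p = 0.342) without replicate 4. The difference for 65–79*SE in replicates 1–3, -0.45 ± 0.16 (SE, adjusted p = 0.03), was under the fold limit. The sets differed for 65–79*SE by 0.72 (adjusted p = 0.0205), a call that was lost without replicate 1, 2, 3, 5 or 6 (log2 0.74, 0.70, 0.70, 0.55 and 0.41).

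Cebpa was not called against PBS in the Il-4 table. PBS libraries had 18.5, 25.9 and 26.4 and 17.0, 24.4 and 33.3 CPM in the 2 sets, 65–79*SE libraries 21.1, 30.0 and 37.8 and 11.5, 19.7 and 19.6 CPM, and 65–79*PE libraries 29.5, 30.0 and 35.8 and 20.8, 21.6 and 30.1 CPM. The 65–79*PE libraries lay above PBS in replicates 1–3 (log2 0.43, adjusted p = 0.342), and the other peptide groups overlapped with PBS of their set. With the replicate number as a block, Cebpa was past the adjusted p and under the fold limit for 65–79*PE in replicates 1–3 (0.44, adjusted p = 0.0353) and for 65–79*SE in replicates 4–6 (-0.54, adjusted p = 0.0195). Same-numbered libraries of these contrasts did not all deviate together.

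Cebpb, which encodes the C/EBP factor of the activated macrophage, was not called against PBS in any set. In the IFNγ table PBS libraries had 38.8, 44.2 and 45.4 CPM in replicates 1–3, where 65–79*SE libraries had 61.1, 55.7 and 65.8 CPM and 65–79*PE libraries 45.7, 47.7 and 46.9 CPM. The 65–79*SE libraries were above all others of that set, at 1.42-fold of PBS (log2 0.51 ± 0.16 SE, adjusted p = 0.0186), under the fold limit. Replicates 4–6 had 56.7, 35.5 and 41.9, then 35.9, 52.7 and 52.4, then 40.6, 43.2 and 55.2 CPM, and the groups overlapped. Under the Il-4 labels Cebpb ran from 50.2 to 62.0 CPM over replicates 1–3 and from 60.9 to 130.1 CPM over replicates 4–6, and its log2 differences from PBS lay between -0.30 and -0.02, none past the adjusted p. The value of 65–79*SE in replicates 4–6, -0.25, was -0.71 without replicate 4 and turned to 0.17 without replicate 6.

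Maf, which encodes c-Maf, was at low levels. With Il-4 it was called lower than PBS for 65–79*SE in replicates 1–3. In the IFNγ table it was called higher only in replicates 4–6. There the calls were for 65–79*PE and for the libraries labelled 65–79*SE, which lacked the IFNγ response. In replicates 1–3 of that table neither peptide was called. The log2 differences were 0.88 (adjusted p = 0.0793) for 65–79*SE and 0.26 (adjusted p = 0.668) for 65–79*PE. In the IFNγ table PBS libraries had 0.532, 0.364 and 0.249 CPM in replicates 1–3 and 0.235, 0.158 and 0.118 CPM in replicates 4–6. Values were 0.942, 0.610 and 0.583 and 0.858, 0.883 and 0.542 CPM in the libraries labelled 65–79*SE, and 0.440, 0.656 and 0.283 and 1.25, 2.58 and 2.41 CPM with 65–79*PE. The libraries labelled 65–79*SE lay above PBS in both sets, and 65–79*PE overlapped with PBS in replicates 1–3 and lay above all others in replicates 4–6. Maf rose with 65–79*PE in replicates 4–6 (log2 3.55 ± 0.40 SE, adjusted p = 5.52e-07) from 4 to 13 counts per PBS library to 30 to 95 counts, and it rose in the libraries labelled 65–79*SE (log2 2.05 ± 0.46 SE, adjusted p = 0.0147), a call that was lost without replicate 5 or 6 (log2 1.88 and 2.02, adjusted p = 0.0716 and 0.102).

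With Il-4, Maf was lower than in PBS. PBS libraries had 4.03, 2.16 and 1.64 CPM in replicates 1–3 and 1.37, 1.54 and 1.93 CPM in replicates 4–6, against 0.837, 0.217 and 0.126 and 0.224, 0.810 and 0.848 CPM with 65–79*SE and 1.36, 0.387 and 0.462 and 0.648, 0.633 and 0.343 CPM with 65–79*PE. No peptide library overlapped with PBS of its set, and replicate 1 was the highest of replicates 1–3 in each group. Maf fell with 65–79*SE in replicates 1–3 (log2 -2.67 ± 0.58 SE, adjusted p = 0.00699), a call that was lost without replicate 2 or 3 (log2 -2.51 and -2.51, adjusted p = 0.121 and 0.0724). The other log2 differences were -1.79 (adjusted p = 0.0502) for 65–79*PE in replicates 1–3, and -1.35 (adjusted p = 0.19) and -1.52 (adjusted p = 0.134) in replicates 4–6. With the replicate number as a block all 3 were called, at -1.90 (adjusted p = 0.00319) for 65–79*PE in replicates 1–3, and at -1.38 (adjusted p = 0.026) for 65–79*SE and -1.48 (adjusted p = 0.0158) for 65–79*PE in replicates 4–6. Of these contrasts, same-numbered libraries deviated together in every pair only for 65–79*PE in replicates 4–6.

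Itgam, which encodes CD11b, was higher with 65–79*SE than with 65–79*PE under IFNγ in replicates 1–3. PBS libraries had 182, 191 and 176 CPM there, 65–79*SE libraries 284, 234 and 257 CPM and 65–79*PE libraries 163, 163 and 148 CPM. The 65–79*SE libraries were above PBS and the 65–79*PE libraries below it, with log2 differences of 0.50 ± 0.08 (SE, adjusted p = 2.82e-05) and -0.21 ± 0.08 (SE, adjusted p = 0.0407), both under the fold limit. In replicates 4–6 the values were 140.5, 145 and 164 CPM for PBS, 161, 145 and 137 CPM for the libraries labelled 65–79*SE and 199, 186 and 176 CPM for 65–79*PE, which lay above the others at a log2 difference from PBS of 0.32 ± 0.08 (SE, adjusted p = 0.00524).

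In the Il-4 table, Itgam had 210.0, 241 and 224 CPM in PBS, 182, 154 and 221 CPM with 65–79*SE and 199, 180.3 and 196 CPM with 65–79*PE in replicates 1–3. Replicates 4–6 had 164, 149 and 120.4, 107, 146 and 143 and 147, 131 and 142 CPM. Its log2 differences from PBS lay between -0.28 and -0.05, none past the adjusted p.

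Cd68, the lysosomal protein macrosialin, was lower with 65–79*PE and IFNγ in replicates 4–6 than in any other group of the IFNγ table. PBS libraries had 1113, 1208 and 1163 CPM in replicates 1–3 and 1071, 1016 and 1025 CPM in replicates 4–6. Values were 1058, 1018 and 981 and 1107, 1172 and 1044 CPM in the libraries labelled 65–79*SE and 986, 1013 and 1055 and 729, 841 and 750.5 CPM with 65–79*PE. The last group did not overlap with any other, at 1.34-fold below PBS (log2 -0.42 ± 0.07 SE, adjusted p = 3.39e-05), past the adjusted p and under the fold limit. The differences in replicates 1–3 were -0.19 (adjusted p = 0.0223) and -0.19 (adjusted p = 0.0228).

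With Il-4, Cd68 was 1514, 1461 and 1502 CPM in PBS replicates 1–3, 1889, 1979.7 and 1908 CPM with 65–79*SE and 1817, 1737 and 1857 CPM with 65–79*PE. In replicates 4–6 it was 381, 488 and 662, 346, 446 and 563 and 365, 482 and 560.0 CPM. Both peptides lay above PBS without overlap in replicates 1–3 and overlapped with it in replicates 4–6, and no difference was past the adjusted p (log2 0.37, 0.27, -0.18 and -0.12). Each peptide library of replicates 4–6 lay below the PBS library of its number. With the replicate number as a block, the differences in replicates 1–3 were past the adjusted p and under the fold limit (0.37, adjusted p = 0.00349, and 0.27, adjusted p = 0.0231), and those in replicates 4–6 had adjusted p of 0.154 and 0.396.

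Mertk, which encodes a receptor that binds bridging proteins on dying cells, was at or near the detection floor. In PBS it had 0, 1 and 1 counts in replicates 1–3 and 1, 1 and 5 counts in replicates 4–6 of the IFNγ table, and 4, 2 and 2 and then 0, 2 and 1 counts in the Il-4 table. With 65–79*PE, counts were 0, 6 and 2 and then 7, 7 and 12 with IFNγ, and 11, 3 and 6 and then 11, 11 and 5 with Il-4, so the highest library had 12 counts. In the libraries labelled 65–79*SE they were 9, 9 and 4 in replicates 1–3 and 2, 4 and 1 in replicates 4–6 with IFNγ, and 6, 3 and 3 and then 7, 10 and 5 with Il-4. No fold is given, since PBS was near the floor of 3 counts.

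The members lie on 6 chromosomes of GRCm38, all as protein-coding genes. Csf1r is on chromosome 18 (61100598 to 61132149), Spi1 on chromosome 2 (91082390 to 91115756), Cebpa on chromosome 7 (35119293 to 35121928), Cebpb on chromosome 2 (167688915 to 167690418) and Maf on chromosome 8 (115682942 to 115707794). Adgre1 is on chromosome 17 (57358691 to 57483527), Itgam on chromosome 7 (128062640 to 128118491), Cd68 on chromosome 11 (69664213 to 69666153) and Mertk on chromosome 2 (128698956 to 128802894). Exons of Hmgxb3 on the other strand share 15.1% of the exon bases of Csf1r, and exons of Tmem189 on the other strand share 20.7% of those of Cebpb. The largest overlap is that of Itgam, where Gm49368, an annotated protein-coding gene on the same strand, shares 3450 exon bases or 68.7% of the exon bases of Itgam. Gm49368 was not analysed here. The overlaps are from a later GENCODE release than the one the paper names for its counting, so whether Gm49368 was a counted gene was not checked. If it was, reads from shared exons on the same strand cannot be told apart under either strand setting. The counts and RPKM of Itgam are uncertain to that extent. Antisense genes share 5.34% of the exon bases of Maf and 1.94% of those of Cebpa. The strand setting of the counting was not given in the sources used here, so reads of the pairs on opposite strands cannot be told apart from the tables alone.

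Between the label sets, 4 of 8 members tested were called in PBS of the IFNγ table and 5 of 8 in PBS of the Il-4 table, where 51.9% and 49.9% of all genes tested were. Spi1 and Csf1r were lower in replicates 4–6 in both tables, with log2 differences of -0.66 ± 0.07 (SE, adjusted p = 7.38e-09) and -1.02 ± 0.13 (SE, adjusted p = 1.34e-06) in the IFNγ table and of -0.83 ± 0.10 (SE, adjusted p = 1.89e-06) and -0.79 ± 0.21 (SE, adjusted p = 0.00317) in the Il-4 table. Cd68 fell 2.92-fold in the Il-4 table (log2 -1.55 ± 0.19 SE, adjusted p = 1.45e-06) and differed by -0.16 in the IFNγ table. Itgam fell (log2 -0.64) and Cebpb rose (log2 0.79) in the Il-4 table, a rise lost without replicate 6 (0.53), as was the fall of Itgam without replicate 6 (-0.51) and with RLE size factors (-0.57). Cebpa (log2 -0.63) and Maf (log2 -1.11) fell in the IFNγ table. Cebpa was not called there without replicate 5 or 6 (-0.52 and -0.34), Maf was not called without replicate 1, 2, 5 or 6 (-0.79, -1.15, -0.995 and -0.82), and Spi1 was -0.55, under the fold limit, without replicate 5. Adgre1 did not pass the adjusted p in either table (-0.18 and 0.00).

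The experiment, the naming scheme and the RNA content of the libraries moved together, so they cannot be told apart. Protein-coding genes took 85.1 to 85.4% of the counts in PBS replicates 1–3 and 65.8 to 68.8% in replicates 4–6 of the IFNγ table, and 95.4 to 97.5% and 78.6 to 87.4% in the Il-4 table. The gene Rn7s1 took 0.000371 to 0.000791% of the counts in PBS replicates 1–3 and 6.06 to 7.02% in replicates 4–6 of the IFNγ table. In the Il-4 table it took 0% and 0.00118 to 0.00227%. The part of these shares in the differences between sets was not tested.

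Between the peptides, the order of Adgre1 and Itgam turned between the sets with IFNγ. In replicates 1–3, 2 members were called (background 5.32%): Adgre1 was 2.04-fold higher with 65–79*SE than with 65–79*PE (log2 1.03 ± 0.09 SE, adjusted p = 1.42e-07) and Itgam 1.64-fold higher (log2 0.71 ± 0.08 SE, adjusted p = 2.76e-06). In replicates 4–6, 3 members were called (background 13.8%), with Adgre1 lower (log2 -0.94 ± 0.09 SE, adjusted p = 5.31e-08), Maf lower (log2 -1.50 ± 0.35 SE, adjusted p = 0.0024) and Cebpa higher (log2 0.89 ± 0.18 SE, adjusted p = 0.000527) in the libraries labelled 65–79*SE. Cd68 was 0.52 and Itgam -0.34 on the log2 scale, past the adjusted p and under the fold limit. The difference between the peptides differed between the sets for 4 members (background 16.6%): Adgre1 (-1.97, adjusted p = 1.02e-10), Itgam (-1.05, adjusted p = 4.09e-07), Maf (-2.12, adjusted p = 0.00381) and Cebpa (1.07, adjusted p = 0.00183). In replicates 4–6 the 65–79*PE libraries carried the IFNγ response and those labelled 65–79*SE did not, so peptide and IFNγ response cannot be told apart there.

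With the response present on both sides, in replicates 1–3, Csf1r differed between the peptides by 0.03 (95% interval -0.24 to 0.30), Spi1 by 0.01 (-0.12 to 0.15), Cd68 by less than 0.01 (-0.13 to 0.14), Cebpa by -0.19 (-0.53 to 0.15), Cebpb by 0.38 (0.04 to 0.72) and Maf by 0.62 (-0.17 to 1.41) on the log2 scale. None of these 6 was past the adjusted p.

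With Il-4, 0 of 8 members differed between the peptides in either set by edgeR, and 0 had an unadjusted p under 0.05. Of all genes tested, 0.00% and 0.00% were called, with an unadjusted p under 0.05 in 567 and 1302 genes and with 0 and 46 genes called by DESeq2, in replicates 1–3 and 4–6 in turn. The 95% intervals of the log2 difference were -0.34 to 0.20 and -0.39 to 0.14 for Adgre1, -0.40 to 0.48 and -0.66 to 0.22 for Csf1r, -0.04 to 0.39 and -0.14 to 0.29 for Spi1, and -0.29 to 0.48 and -0.44 to 0.33 for Cd68. For Maf the intervals were -2.22 to 0.45 and -1.14 to 1.47. Dose and time were the same for both peptides. For no contrast of the Il-4 table did any member's change differ between the label sets by edgeR. An unadjusted p under 0.05 was found in 3 members for 65–79*SE against PBS, where 24.1% of all genes tested had one. It was found in 2 members for 65–79*PE against PBS (10.4% of genes) and in 0 between the peptides (3.08%). With the replicate number as a block, 1 member was called, Cebpa for 65–79*SE against PBS (log2 -0.85, adjusted p = 0.0101). By edgeR without a block, 3.97%, 0.00705% and 0.00% of all genes tested were called in these contrasts, and DESeq2 called 1043, 102 and 0 genes.

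The change of Maf against PBS differed between the tables for both peptides. Its PBS levels differed too, with means of 0.382 CPM in the IFNγ table and 2.61 CPM in the Il-4 table in replicates 1–3. Replicates 4–6 had 0.170 and 1.61 CPM. With 65–79*SE in replicates 1–3 the means were 0.712 and 0.393 CPM, and with 65–79*PE 0.460 and 0.738 CPM. The peptides share these PBS libraries, and the part of PBS in the difference was not tested. Only the contrasts with PBS were compared, in 1 fit of all 36 libraries over 17201 genes, where Mertk was tested too and was not called. For 65–79*SE in replicates 1–3, 4 of 9 members differed between the tables (background 19.6%): Maf by 3.49 (adjusted p = 0.000366), Adgre1 by 0.80 (adjusted p = 0.000214), Itgam by 0.71 (adjusted p = 0.00153) and Cd68 by -0.62 (adjusted p = 0.0194). The Cd68 call was lost with RLE size factors (-0.58) and without replicate 2 or 3 (-0.56 and -0.58). For 65–79*PE, 1 member differed in replicates 1–3 (Maf, 2.03, adjusted p = 0.0422, background 13.3%) and 2 in replicates 4–6 (Maf, 4.99, adjusted p = 5.61e-06, and Csf1r, 0.78, adjusted p = 0.0397, background 11.5%). Without replicate 2, 3, 5 or 6, the Maf call of 65–79*PE in replicates 1–3 was lost (log2 1.44, 2.04, 2.01 and 2.00). The Csf1r call was lost without replicate 2, 3, 5 or 6 (0.78, 0.78, 0.96 and 0.70).

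Among the genes around Csf1r, the gene of its ligand M-CSF rose with 65–79*PE and IFNγ in both sets and with 65–79*SE in replicates 1–3. Of 11 tested genes of CSF receptors, ligands and adaptors, 3 were higher and 3 lower with 65–79*PE and IFNγ in replicates 1–3, and 4 higher and 1 lower in replicates 4–6. Of all genes tested, 18.4% and 11.1% were called for 65–79*PE with IFNγ in the 2 sets, and 21.0% and 1.82% for 65–79*SE. With Il-4 the shares were 3.47% and 3.53% for 65–79*PE and 6.13% and 2.19% for 65–79*SE. These shares stand beside the counts of this and the following gene lists. Csf1, which encodes M-CSF itself, rose to a mean of 36.6 CPM against 4.30 CPM in PBS (log2 3.09 ± 0.35 SE, adjusted p = 9.91e-06) in replicates 1–3 and to 36.3 against 9.43 CPM (log2 1.94 ± 0.32 SE, adjusted p = 0.000498) in replicates 4–6. Its log2 fold change with 65–79*SE was 3.28 (adjusted p = 4.34e-06) in replicates 1–3, and it was not past the adjusted p in replicates 4–6 (adjusted p = 0.16). Csf3r, the G-CSF receptor, rose in both sets with 65–79*PE (log2 0.78 and 2.35) and with 65–79*SE (1.33 and 0.72), the libraries that lacked the IFNγ response included. Socs1, an inhibitor of JAK signalling, rose with 65–79*PE in both sets (2.27 and 1.74) and with 65–79*SE in replicates 1–3 (1.83), with -0.05 (adjusted p = 0.977) in replicates 4–6. With 65–79*SE and IFNγ, replicates 1–3, 3 were also higher and 3 lower, and in the libraries labelled 65–79*SE, replicates 4–6, 1 was higher. With Il-4, 1 of 11 was higher for 65–79*PE and for 65–79*SE in replicates 1–3, 1 was higher and 2 lower for 65–79*PE in replicates 4–6, and 0 were called for 65–79*SE there. Socs1 rose with 65–79*PE in both sets (2.40 and 1.05) and with 65–79*SE in replicates 1–3 (2.42), with 1.02 (adjusted p = 0.053) in replicates 4–6.

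Of 17 other myeloid transcription factors, 4 were higher and 3 lower with 65–79*PE and IFNγ in replicates 1–3 (background 18.4%). In replicates 4–6, 4 were higher and 1 lower (background 11.1%). With 65–79*SE in replicates 1–3, 8 were higher and 3 lower (background 21.0%). In the libraries labelled 65–79*SE, replicates 4–6, 0 were higher and 1 was lower (background 1.82%). Gfi1, a repressor in the myeloid lineage, rose with 65–79*PE and IFNγ in both sets (log2 0.93, adjusted p = 0.000381 and 1.03, adjusted p = 0.00266), as did Pparg, a lipid-activated nuclear receptor (1.02 and 0.75), whereas Rxra, which encodes its dimer partner RXRα, fell (-0.82 and -0.86). With 65–79*SE in replicates 1–3, Pparg rose (1.36), Rxra fell (-0.59) and Gfi1 was 0.55 (adjusted p = 0.0233), under the fold limit, and none of the 3 was called in the libraries labelled 65–79*SE, replicates 4–6 (0.60, 0.16 and 0.28). With Il-4, at most 1 of 17 was called in each direction in any contrast.

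Of 11 tested adhesion partners and related surface receptors, 3 were higher and 4 lower with 65–79*PE and IFNγ in replicates 1–3 (background 18.4%). In replicates 4–6, 5 were higher and 2 lower (background 11.1%). With 65–79*SE, 4 were higher and 3 lower in replicates 1–3 (background 21.0%), and 3 higher and 0 lower in replicates 4–6 (background 1.82%). Itgal and Itgax, the α chains of LFA-1 and CD11c that share the β2 chain with Itgam, rose with 65–79*PE in both sets (log2 2.41 and 2.79 for Itgal, 0.86 and 2.18 for Itgax). Itgax also rose with 65–79*SE in both sets (1.79 and 0.85), and Itgal in replicates 1–3 (2.68) but not in the libraries labelled 65–79*SE, replicates 4–6 (-0.01, adjusted p = 0.994). Cx3cr1, the fractalkine receptor of resident macrophages and monocytes, fell to a mean of 0.491 CPM, where PBS had 23.7, in replicates 1–3 and to 0.2395 CPM, where PBS had 5.05, in replicates 4–6. Its log2 fold change for 65–79*SE was -4.79 (adjusted p = 0.000115) in replicates 1–3 and 0.57 (adjusted p = 0.684) in replicates 4–6. With Il-4, Itgax rose with 65–79*SE (log2 3.44 and 2.61) and 65–79*PE (3.02 and 2.22), whereas Itgal fell with 65–79*SE (-1.44 and -1.16) and with 65–79*PE in replicates 1–3 (-1.47), with -0.61 (adjusted p = 0.201) in replicates 4–6. Itgam itself was called in none of these contrasts.

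Of 10 other macrophage surface and lysosome markers, 1 or 2 were higher and 0 or 1 lower in each contrast with PBS (backgrounds from 1.82% to 21.0%). Among them Fcgr1, the high-affinity IgG receptor, rose with 65–79*PE and IFNγ (log2 1.51 and 0.91) and with 65–79*SE in replicates 1–3 (1.59) but fell in the libraries labelled 65–79*SE, replicates 4–6 (-0.67), and Mrc1, the mannose receptor, rose with Il-4 and either peptide (log2 4.41 and 4.17 with 65–79*SE, 4.59 and 4.40 with 65–79*PE). Of 9 tested genes for recognition of dying cells, 2 were higher and 1 lower with 65–79*PE and IFNγ in replicates 1–3 (background 18.4%). In replicates 4–6, 3 were higher and 1 lower (background 11.1%). With 65–79*SE, 3 were higher and 2 lower in replicates 1–3 (background 21.0%). In the libraries labelled 65–79*SE, replicates 4–6, 0 were called (background 1.82%). Axl, which belongs to the same receptor family as Mertk, rose with 65–79*PE to a mean of 4.18 CPM (PBS 0.280 CPM) in replicates 1–3 and 3.32 CPM (PBS 0.184 CPM) in replicates 4–6. For 65–79*SE, Axl had a log2 fold change of 3.79 (adjusted p = 1.24e-09) in replicates 1–3 and -1.21 (adjusted p = 0.304) in replicates 4–6. Cd36, a scavenger receptor, rose with both peptides under Il-4 (log2 0.91 and 1.32 with 65–79*SE, 1.15 and 1.30 with 65–79*PE). With IFNγ it rose with 65–79*PE in both sets (2.06 and 2.21) and with 65–79*SE in replicates 1–3 (3.17), and it was 0.07 (adjusted p = 0.854) in the libraries labelled 65–79*SE, replicates 4–6. Of 5 osteoclast genes, which RAW264.7 cells can express since they give rise to osteoclasts, 1 was higher and 3 lower with each peptide and IFNγ in replicates 1–3. The counts in replicates 4–6 were 1 higher and 4 lower with 65–79*PE, and 0 were higher and 4 lower in the libraries labelled 65–79*SE. The backgrounds were those given for the list of dying-cell recognition. Ctsk, the collagen-degrading cathepsin K, fell in both sets with 65–79*PE (log2 -2.83 and -2.90) and with 65–79*SE (-2.67 and -0.64). So did Acp5 (-2.27 and -2.41 with 65–79*PE, -1.86 and -0.85 with 65–79*SE) and Oscar (-1.78 and -2.40, then -2.41 and -1.66). Ocstamp, which takes part in osteoclast fusion, rose with 65–79*PE in both sets (1.32, adjusted p = 0.00306 and 1.97, adjusted p = 0.000227) and with 65–79*SE in replicates 1–3 (2.12), and it was -0.53 (adjusted p = 0.599) in the libraries labelled 65–79*SE, replicates 4–6. It is named here as the member of the list that moved against the others, chosen after its values were seen. With Il-4, 1 of the 5 was called in 1 contrast, Ctsk for 65–79*SE in replicates 1–3 (log2 0.84, adjusted p = 0.041).

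Across libraries, the genes most like a member were found by the smaller of the Pearson r in the 2 tables, over 18 libraries each after centring the label sets, among 8064 genes at 10 CPM or more. They are descriptions, since these libraries share groups, depth and RNA content. For Csf1r they were Sema4a (r = 0.905 in the IFNγ table and 0.893 in the Il-4 table), Lyz2 (0.919 and 0.851), the macrophage lysozyme, and Mcmbp, and for Cd68 they were Gstm1 (0.918 and 0.942), Vat1 and Aes. For Adgre1 they were Tanc2 (0.853 and 0.898), Cd274 and Rnf19b, and for Cebpa Erf (0.906 and 0.851), Snrpg and Ckap4. Maf was most like Rab32 (0.782 and 0.875), Cttnbp2nl and Cybb. The first of the 3 was Sh2b2 (0.753 and 0.730) for Spi1, Tnpo2 (0.762 and 0.758) for Itgam and Tatdn2 (0.662 and 0.676) for Cebpb.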

How the data were processed

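RNA was sequenced from 36 libraries of RAW264.7 cells (a stranded mRNA kit and single-end reads by the paper's account). The RNA content of the label sets differed, as given above. The deposited tables hold raw counts of reads per gene, which the authors made with featureCounts on GRCm38.p5 from uniquely aligned reads. The aligner and the strand option are not given in the sources used here. Counts of each table were fitted in R 4.3.3 with edgeR 4.0.16 (filterByExpr, TMM, robust quasi-likelihood), with 1 mean per group and label set, and p-values were adjusted over all genes tested. A call needed an adjusted p under 0.05 and a fold change over 1.5. DESeq2 1.42.0, other scalings, other filters, a replicate block and leaving out each replicate were alternatives. Total counts per library, given in the report, set the counting precision, and counts have no molecular identifiers, so floors cover counting error only. All 9 members were named in each comparison. Of the surrounding gene lists, those called in the same direction in both label sets were named, up to 3 per list and table by mean absolute log2 fold change, with others where a sentence on a member needed them. The labels number the replicates without saying what a number shares. Same-numbered libraries deviated together in part of the Il-4 contrasts, so values with the replicate number as a block are given beside the Il-4 results they change. The members and lists were chosen with earlier results of these data known. The fits were tested on simulated data. Replicates are biological by the study's account, without a statement of separate cultures for each. Gene positions, exon lengths and overlaps are from a GENCODE annotation of GRCm38, a later release than the one the paper names for its counting.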

Additional observations from a re-analysis of the deposited data

Results flagged for a closer look

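Single libraries stood far from the other 5 of their group (Dixon's test) in 5 of 54 groups of 6 libraries, where chance flags about 1 in 20 groups. Mertk reached 0.118 CPM in PBS replicate 6 of the IFNγ table. In the Il-4 table, Cebpb reached 116 CPM in 65–79*SE replicate 4 and 103 CPM in 65–79*PE replicate 6, and Maf reached 4.03 CPM in PBS replicate 1 and 1.36 CPM in 65–79*PE replicate 1. The groups of 6 hold both label sets.

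Of 75 differences tested, 17 were called. The share of all genes called in the same contrasts ran from 0.00% to 22.6%, so the count is not read as particular to the members. Between the label sets of the IFNγ table, the log2 fold change of 65–79*SE against PBS differed by 0.72 for Cebpa, -1.08 for Adgre1 and 1.09 for Csf1r, and that of 65–79*PE by 3.29 for Maf, 0.90 for Adgre1 and 1.08 for Csf1r. The difference between the peptides differed by 1.07 for Cebpa, -1.05 for Itgam, -2.12 for Maf and -1.97 for Adgre1. Between the IFNγ and the Il-4 tables, 65–79*SE in replicates 1–3 differed by 0.71 for Itgam, 3.49 for Maf, -0.62 for Cd68 and 0.80 for Adgre1. For 65–79*PE the values were 2.03 for Maf in replicates 1–3, and 4.99 for Maf and 0.78 for Csf1r in replicates 4–6. Those between label sets that involve 65–79*SE rest on the libraries labelled 65–79*SE with IFNγ, replicates 4–6, which lacked the response to IFNγ.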

How the results depend on the processing

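No member value that was called changed sign under any alternative run. With RLE size factors, library totals or each label set fitted alone, the number of members called stayed within 1.5 times of its value in every comparison that these settings could fit. Without the low count filter it was 2 for 65–79*SE against PBS (IFNγ, replicates 1–3), where Mertk was added (adjusted p = 0.00901 by edgeR). Its counts there were 0, 1 and 1 in PBS and 9, 9 and 4 with 65–79*SE, near the floor, so no fold is given. The same setting gave 2 for 65–79*PE (Il-4, replicates 1–3) and 2 for 65–79*SE and 2 for 65–79*PE (Il-4, replicates 4–6), each by Maf, 1 for the set difference of 65–79*SE (Il-4) and 2 for the table difference of 65–79*PE (replicates 1–3), both by Cebpa, and Mertk was called in none of these 5. With at least 10 counts in every library, which removes Maf and Mertk, it was 0 for 65–79*SE (IFNγ, replicates 4–6), 0 for 65–79*SE (Il-4, replicates 1–3), and 2, 0 and 1 for the table differences of 65–79*SE (replicates 1–3) and 65–79*PE (replicates 1–3 and 4–6). DESeq2 gave 2 for 65–79*PE (Il-4, replicates 1–3). Among alternatives chosen after seeing the data, protein-coding totals gave 3 for PBS between sets (Il-4), and leaving out the libraries labelled 65–79*SE with IFNγ, replicates 4–6, gave 2 for PBS between sets (IFNγ). Where no construction is named, the cause was not tested. The share of all genes called under each setting is not given here, so moved counts are not read as particular to the members. Library totals moved the median of all genes by -0.35 for PBS between sets (IFNγ), and protein-coding totals by 0.23 (Il-4).

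Same-numbered libraries correlated over 0.1 in 5 of 18 pairs of the IFNγ table (r from -0.394 to 0.294), where 4 correlated best with their own number, and in 14 of 18 pairs of the Il-4 table (r from -0.101 to 0.749), where 14 did. Every pair was over 0.1 in 3 of 6 contrasts of the Il-4 table (65–79*SE against PBS and against 65–79*PE in replicates 1–3, and 65–79*PE against PBS in replicates 4–6) and in 0 of 6 of the IFNγ table. With the replicate block, 2 members were called for 65–79*PE (Il-4, replicates 1–3), 3 for 65–79*SE and 2 for 65–79*PE (Il-4, replicates 4–6) and 1 for the set difference of 65–79*SE (Il-4), and the other counts stayed within 1.5 times. The share of all genes called with the block is not given here.

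Leaving out each replicate in turn gave 1 to 2 members for 65–79*SE against PBS (IFNγ, replicates 1–3), 0 to 1 for 65–79*PE there, 0 to 2 for 65–79*SE and 2 to 4 for 65–79*PE (IFNγ, replicates 4–6), 0 to 1 for 65–79*SE and 0 to 2 for 65–79*PE (Il-4, replicates 1–3), and 1 to 2 for 65–79*PE (Il-4, replicates 4–6). It gave 2 to 4 and 0 to 1 for the set difference of 65–79*SE with IFNγ and Il-4, 1 to 4 and 3 to 5 for PBS between sets, and 3 to 5, 0 to 2 and 1 to 2 for the table differences of 65–79*SE (replicates 1–3) and 65–79*PE (replicates 1–3 and 4–6). The share of all genes called without each replicate is not given here either, so these ranges are not read as particular to the members. Low counts limited Maf and Mertk, and the 3 libraries per group and set limited all intervals.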
